A study of Mus musculus with 8 samples.

Results

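Fibroblasts (FBs) of the mouse hair follicle were selected from single-cell RNA libraries of dorsal skin by the genes they express. A barcode was kept if it held 500 to 4000 genes, at most 20000 unique molecular identifiers (UMIs, each standing for 1 captured transcript) and at most 10% mitochondrial UMIs. It then had to give at least 1% of its UMIs to Col1a1, Col1a2 and Col3a1, hold no Ptprc UMI and fewer than 3 Rgs5 UMIs, which leaves collagen-gated cells. A selected FB carried at least 1 UMI of 2 or more of Ednrb, Wif1, Col11a1 and Crabp1, and fewer than 4 of Pi16, Dpp4, Tmem100, Pla1a, Smpd3, Mrgprg, Efhd1 and Anxa3. Of 26231 barcodes, 11118 passed the cell filter, 2003 of these were collagen-gated and 102 were selected FBs, 5.09% of the collagen-gated cells and 0.917% of all cells. The limit on the 8 excluded genes removed 0 cells. Selected FBs were further split by Acta2 into 32 cells with at least 3 UMIs, 18 cells with 1 or 2 and 52 cells with 0.

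The skin came from female BALB/c mice, 14 to 16 weeks old, that had been injected under the skin either with PBMCsec, the secretome of irradiated human peripheral blood mononuclear cells, or with vehicle. Each group has 4 libraries, numbered 1 to 4, made from 4 mm biopsies by enzymatic dissociation and the 10x Genomics 3′ assay. The labels used here give neither the time after injection, nor the control solution, nor any wounding, so libraries were grouped by treatment alone. The study's paper, in contrast, describes intradermal injection into scars of earlier skin wounds and mice taken at 2 times, which the labels do not assign to libraries. Nothing in the labels names the animal behind a library, so p-values measure the spread between libraries. No transgene or deletion is named for either group, and the hair cycle stage is not given.

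The hair follicle is enclosed by 2 mesenchymal compartments. The dermal papilla sits at its base and signals to the epithelium through Wnt, bone morphogenetic protein (BMP) and fibroblast growth factor pathways. The dermal sheath wraps the follicle as a contractile layer, is marked by smooth muscle actin and takes part in the regression of the follicle during the hair cycle. Both derive from fibroblast lineages and differ from the FBs of the interfollicular dermis and of the fascia. Fascia FBs carry genes such as Pi16 and Dpp4.

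The selected FBs were spread unevenly over the libraries. The PBMCsec libraries 1, 2, 3 and 4 held 5, 3, 26 and 26 of them and the vehicle libraries held 1, 2, 29 and 10. The 4 libraries numbered 3 and 4 therefore supplied 91 of the 102 cells, and every per-library level below comes from these. Their summed counts over selected FBs were 225734 and 255158 UMIs in PBMCsec libraries 3 and 4, and 179363 and 82169 UMIs in vehicle libraries 3 and 4. The median depth was 8332.5 UMIs per selected FB and 7917 UMIs per other collagen-gated cell. Pairs of libraries shared at most 10 cell barcodes, and at most 0.343% of the barcodes of the smaller library.

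**Figure D1:**
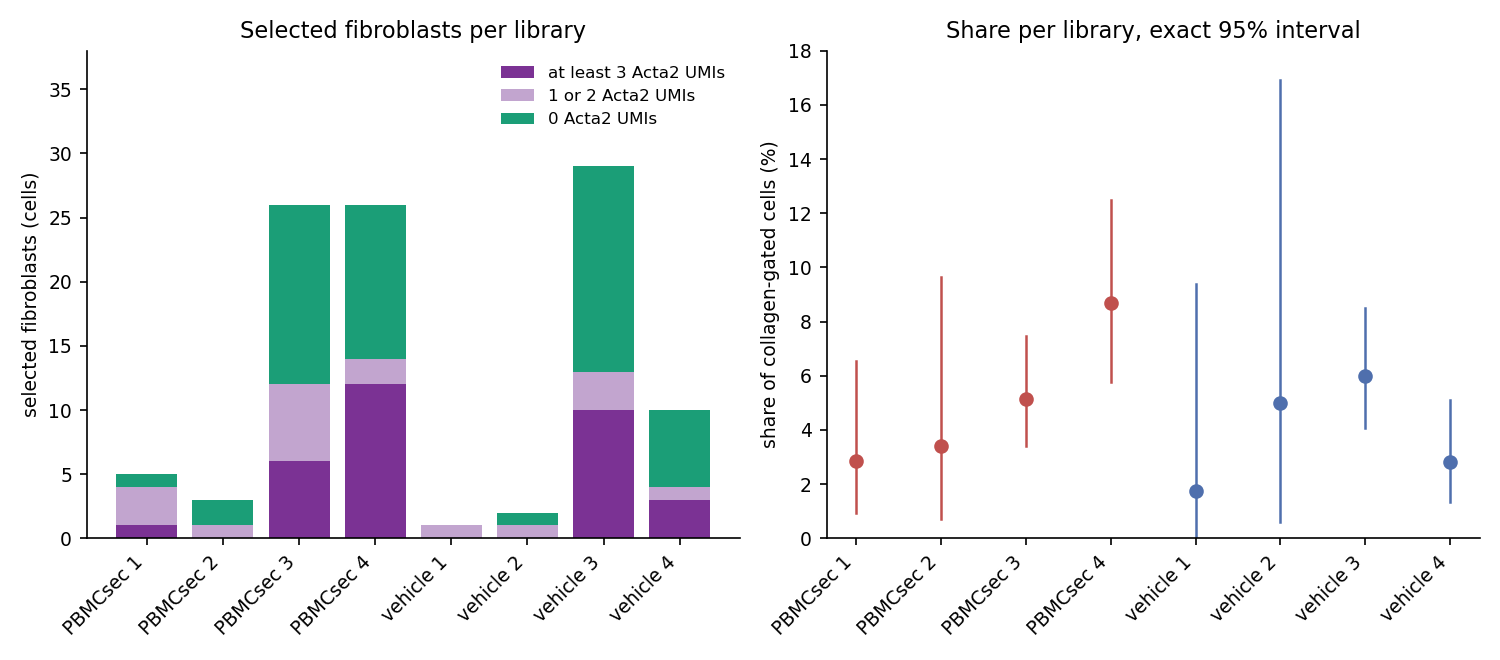
Number of selected FBs per library, stacked by Acta2 class (left, cells), and their share of collagen-gated cells (right, %, points with exact 95% binomial intervals for counting error, PBMCsec in red and vehicle in blue). Libraries 3 and 4 of each group hold between 10 and 29 selected FBs, and the other libraries hold 5 or fewer.

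The 4 selection genes chose the cells and are given as a description. Col11a1, a chain of fibrillar type XI collagen (chr3:114030540-114220718, GRCm38), was found in 96.1% of selected FBs. Its level was the most even of the 4, with 736 and 736 CPM (UMIs of a gene scaled by all UMIs of the summed cells) in PBMCsec libraries 3 and 4 and 757 and 708 CPM in vehicle libraries 3 and 4. Ednrb, a receptor for endothelins (chr14:103814625-103844402), was found in 47.1% of the cells, with 709 and 2281 CPM in the PBMCsec libraries and 2174 and 2428 CPM in the vehicle libraries. Wif1, a secreted inhibitor of Wnt ligands (chr10:121033960-121100650), was found in 67.6%, with 874 and 452 CPM after PBMCsec and 407 and 769 CPM after vehicle. Crabp1, which binds retinoic acid in the cytoplasm (chr9:54764748-54773110), was found in 24.5%, with 1035 and 169 CPM after PBMCsec and 107 and 366 CPM after vehicle. PBMCsec library 3 was the lowest for Ednrb and the highest for Crabp1, and the groups overlapped for all 4 genes. Other collagen-gated cells had at most 28.2 CPM of any of the 4 in any of these libraries.

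Most cells passed on 2 genes. Of the collagen-gated cells, 1726 held none of the 4 genes, 175 held 1, 67 held 2, 34 held 3 and 1 held all 4. The commonest combinations among selected FBs were Wif1 with Col11a1 (30 cells), Ednrb with Wif1 and Col11a1 (27), Ednrb with Col11a1 (18) and Col11a1 with Crabp1 (15). Of the 27 cells with Ednrb, Wif1 and Col11a1, 21 held at least 3 Acta2 UMIs. Crabp1 went the other way, with 0 UMIs in the 32 cells with at least 3 Acta2 UMIs, which allows a share of cells with a Crabp1 UMI of up to 9.38%. As a background for free RNA, 1 of 2194 cells with a Ptprc UMI (0.0456%, median 3911 UMIs) held 2 or more of the 4 genes. So did 7 of 4585 keratinocytes (0.153%, median 9149 UMIs). These keratinocytes held at least 10 UMIs of Krt5 and Krt14 and gave under 0.1% of their UMIs to the collagen genes. That limit leaves out keratinocytes with more collagen RNA, so 0.153% may understate the background among all keratinocytes.

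Marker lists were set beside the name of a dermal sheath and papilla population. This is a description, since the lists were chosen with earlier results of these data known. Ednrb and Col11a1 are on the sheath list and Wif1 and Crabp1 on the papilla list, and these genes chose the cells. Pdgfra, a receptor of most skin FBs, was found in 90.2% of the selected FBs. The sheath markers Tagln (49.0% of cells), Itga8 (41.2%) and Acan (18.6%) were present, against 3.89%, 4.21% and 0.105% of other collagen-gated cells. Papilla markers were divided. Vcan, a large proteoglycan, was found in 89.2% of selected FBs and 67.3% of other collagen-gated cells. Trps1 (66.7% against 16.1%), Inhba (32.4% against 6.63%), Alx4 (30.4% against 1.84%) and Nog (21.6% against 1.05%) were found more often in selected FBs. Other papilla markers were in few cells. Corin, a membrane protease of the papilla, had a UMI in 8 cells (7.84%, exact 95% interval 3.45 to 14.9), Lef1, a transcription factor of the Wnt pathway, in 5 (4.90%, interval 1.61 to 11.1), and Sox2, a transcription factor of some papillae, in 2. Hhip and Rspo3 had a UMI in 3 cells each and Notum in 2. Markers of both compartments were thus present in part, and the population is called selected FBs here.

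Markers of vessel walls were divided. Kcnj8, Abcc9, Higd1b, Gja4, Rgs4, Des and Vtn, which define pericytes and vascular smooth muscle, had 0 UMIs in the 102 selected FBs. The sum of the 13 genes of that list was 339, 334, 271 and 293 CPM in the 4 libraries, and its most abundant gene was Mcam. In other collagen-gated cells the sum was lower, at 166, 90.8, 138 and 147 CPM. Cspg4 was found in 40.2% of selected FBs, Ndufa4l2 in 36.3% and Mcam in 21.6%. Keratinocyte genes summed to 263, 429, 779 and 317 CPM in selected FBs of PBMCsec libraries 3 and 4 and vehicle libraries 3 and 4. In other collagen-gated cells that sum was 292, 542, 857 and 281 CPM. Immune, endothelial, adipocyte and skeletal muscle lists summed to means of 10.4 CPM or less in selected FBs. The glia and melanocyte list summed to 8.92, 31.5, 84.7 and 24.4 CPM in the 4 libraries, led by Mlana, and to a higher mean of 95.4 CPM in other collagen-gated cells. A UMI of Epcam, Pecam1, Cdh5, Tyrobp or Sox10 was found in 6 selected FBs.

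The collagen limit divided the cells that carried the selection genes. Another 153 cells met every condition except the collagen share, more than the 102 that met all of them. Just outside the limit, 55 such cells gave 0.5% to 1% of their UMIs to the 3 collagen genes, and just inside, 19 gave 1% to 1.5%. These low-collagen cells were described after the data had been seen. Their pattern of selection genes was different, with Wif1 and Crabp1 together, and neither of the other genes, in 60 of the 153 against 2 of the 102. Corin was found in 39.9% of them (interval 32.1 to 48.1), Lef1 in 50.3%, Hhip in 39.2%, Rspo3 in 33.3% and Notum in 27.5%. The level of Rspo3, which strengthens Wnt signals, was 383 and 683 CPM in low-collagen cells of PBMCsec libraries 3 and 4 and 88.2 and 1272 CPM in vehicle libraries 3 and 4. In selected FBs it was 0, 11.8, 0 and 12.2 CPM in the same order. Corin stood at 337 to 779 CPM in low-collagen cells and at 0 to 207 CPM in selected FBs. The share of all genes without overlap between these groups of cells was not counted. Of the low-collagen cells, 47 held at least 3 Acta2 UMIs, with Tagln in 93.6% and Itga8 in 76.6%, and 90 held 0, with Lef1 in 74.4%. The low-collagen cells also had a higher keratinocyte sum, 4144, 1651, 2709 and 3702 CPM in the 4 libraries, led by Krt15, and a lower median depth of 6077 UMIs. The part of depth and keratinocyte RNA in these levels was not tested.

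**Figure D2:**
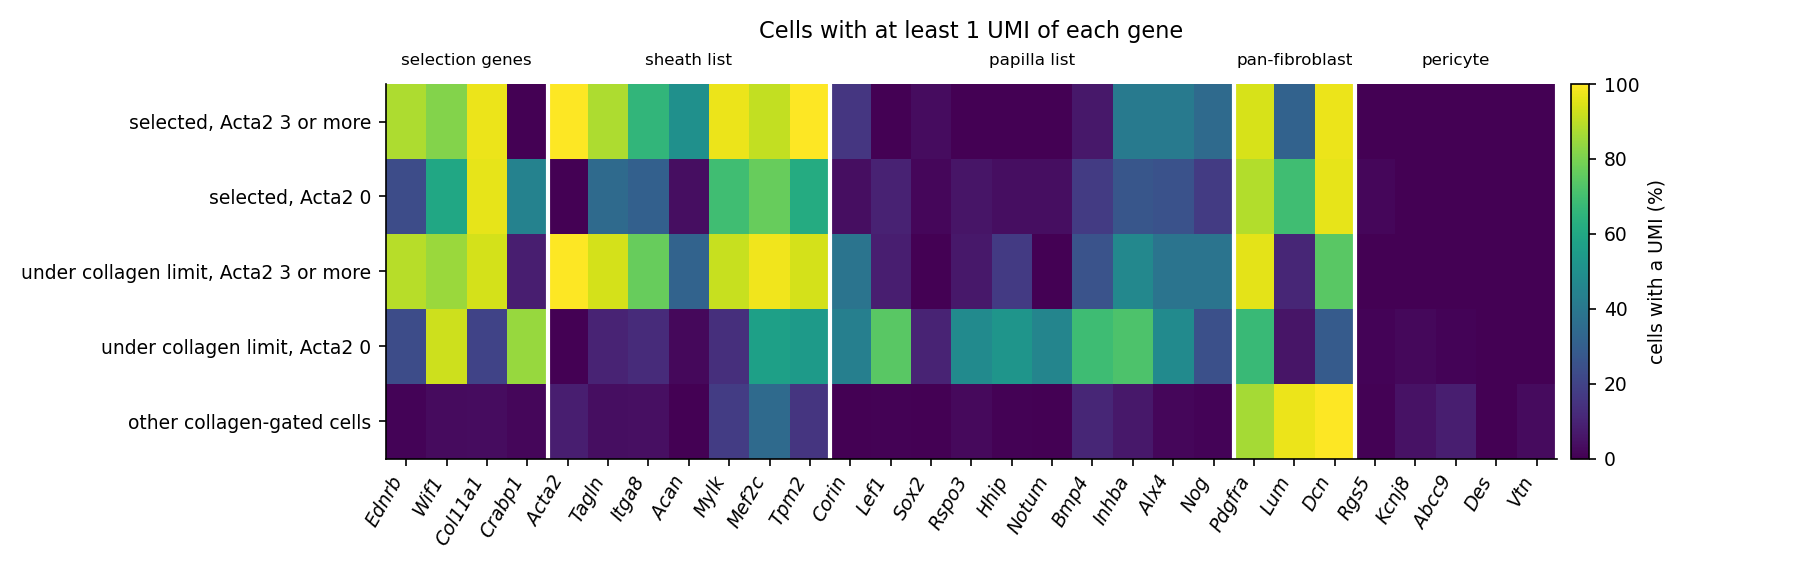
Percent of cells with at least 1 UMI of each gene (colour, %), for selected FBs and low-collagen cells split by Acta2 and for other collagen-gated cells (rows). Lef1, Rspo3, Hhip and Notum are bright in low-collagen cells with 0 Acta2 UMIs, where Lef1 reached 74.4%, and dark in selected FBs. The 5 pericyte genes shown, of which the selection limited Rgs5, are dark in both. Cspg4, Ndufa4l2 and Mcam of the same list, which were found in selected FBs, are not shown.

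The 91 selected FBs of the libraries numbered 3 and 4 were then set beside the 1552 other collagen-gated cells of those libraries. The latter are mostly FBs of the dermis and fascia. The comparison carries no test, because gene expression in the selected FBs chose them. A gene was counted as higher or lower if its mean CPM over the 4 libraries differed at least 2-fold after adding 10 CPM to both means and if selected FBs lay on the same side of the other cells within each of the 4 libraries. Of 12815 genes with at least 10 UMIs, the genes of the selection rule left out, 429 were higher (3.35%) and 507 were lower (3.96%), and the median log2 fold of all of them was 0.03.

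The 15 genes with the largest folds on the higher side included Tagln, Actg2 and Tpm2 of the contractile list. Tagln, an actin-binding protein of smooth muscle, stood at 593, 716, 791 and 1525 CPM in selected FBs of PBMCsec libraries 3 and 4 and vehicle libraries 3 and 4, against 6.22 to 14.5 CPM in other collagen-gated cells. Its log2 fold was 5.50, the highest of the comparison. The 2 sets of libraries did not overlap, which the choice of genes by fold and side makes likely. The share of all genes without overlap was not counted. Coch, which encodes the secreted protein cochlin, followed with a log2 fold of 4.99 but a wide spread, at 3712, 346, 209 and 1171 CPM. A single cell held 41.6% of the Coch UMIs of the selected FBs, and without PBMCsec library 3 the log2 fold was 3.90. Actg2, the enteric smooth muscle actin, and Acan, the proteoglycan aggrecan, were close to absent elsewhere, with log2 folds of 3.86 and 3.84 and means in other collagen-gated cells of 0.46 and 0.11 CPM. Without vehicle library 4 the log2 fold of Acan was 3.14. The next genes were Matn4 (3.83), Nav2 (3.73), Cpxm2 (3.68), Tpm2 (3.53), Cdc42ep3 (3.50), Rflnb (3.50), Kank4 (3.50), Bok (3.43), Mcam (3.41), Etl4 (3.40) and Casq2 (3.37), of which Tpm2 is a tropomyosin and Casq2 a calcium-binding protein of muscle.

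The lower side was led by C3, C4b and Sfrp4. C3, the central complement component, stood at 8.92, 7.87, 5.65 and 36.6 CPM in selected FBs against 1572 to 2140 CPM in other collagen-gated cells, a log2 fold of -6.21. C4b, another complement component, had a log2 fold of -5.70, and Sfrp4 and Sfrp2, secreted Wnt-binding proteins, had -5.65 and -5.40. The chemokine genes Ccl11 and Cxcl1 had -5.47 and -4.40, and without PBMCsec library 3 Cxcl1 had -3.09. Fn1, fibronectin, was at 159 to 389 CPM in selected FBs and at 5669 to 6732 CPM in the others (log2 fold -4.65). Plac8 and Col6a5 had 0 UMIs in the 91 cells compared, and stood at 410 and 144 CPM in the others. Gpx3 (-5.22), Ace (-4.63), Ptx3 (-4.00, or -2.98 without PBMCsec library 3), Plau (-3.95), Cmah (-3.84) and Il4ra (-3.84) completed the 15 genes with the largest folds on this side.

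**Figure D3:**
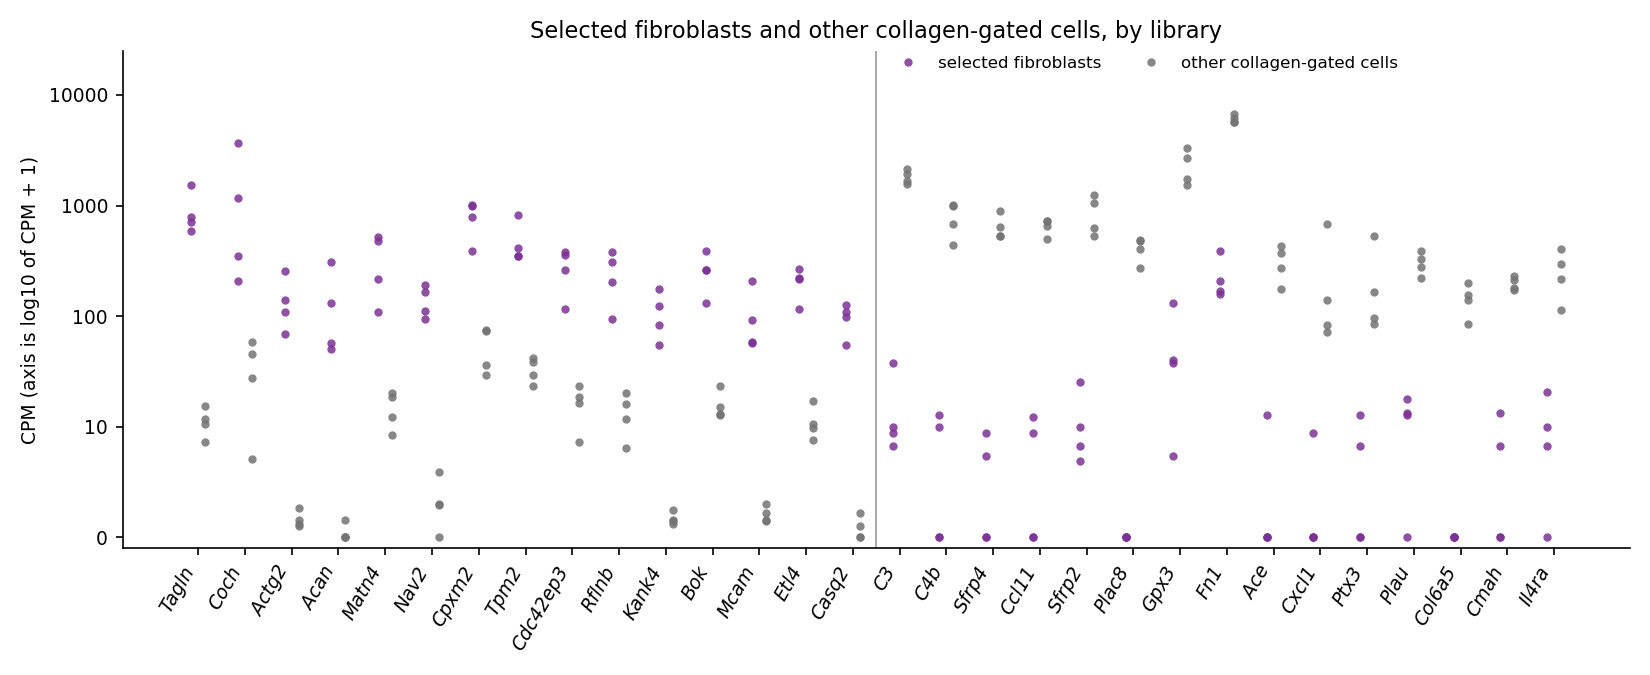
Level of the 15 genes with the largest fold on each side (higher left of the line, lower right of it) in selected FBs and other collagen-gated cells, 1 point per library for 4 libraries, as CPM on an axis of log10 of CPM + 1. The 2 sets of points do not overlap within any gene shown, which the choice of genes by fold and side makes likely. Coch spreads widest among the higher genes, from 209 to 3712 CPM.

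Marker lists gave the following counts, each to be read beside the 3.35% and 3.96% of all genes. The lists were chosen with earlier results of these data known, so the counts are a description. All 8 tested genes of the sheath list that were not in the selection rule were higher (Tagln, Itga8, Acan, Mylk, Ednra, Mef2c, Myl9 and Tpm2, median log2 fold 3.28), and Cnn1 had too few UMIs. In the contractile list, which shares Tagln, Mylk, Myl9 and Tpm2 with it, 10 of 15 tested genes were higher and 0 were lower. In the papilla list, 6 of 20 tested genes were higher, namely Alx4, Nog, Trps1, Vcan, Alpl and Inhba, 1 was lower (Bmp7) and 13 were neither. Of 8 tested fascia and reticular genes, 7 were lower, among them Gpx3, Plac8, Cd34 (log2 fold -2.47) and Clec3b (-2.62). Of 9 tested genes of papillary dermis FBs, Lrig1, Col23a1, Ntn1 and Twist2 were higher and Pdpn was lower, with a median log2 fold of 1.47. Ntn1 was found in 64.7% of selected FBs and 24.5% of other collagen-gated cells, and Twist2 in 59.8% and 26.2%. Of 9 tested genes of further dermal FBs, 2 were higher and 3 lower (median -0.12). The higher ones were Tnmd (log2 fold 2.74, 69.6% of cells against 14.3%), which encodes tenomodulin, and the leptin receptor Lepr (1.71, 46.1% against 10.4%). None of the 12 keratinocyte genes passed in either direction.

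Signalling genes were divided. Of 7 tested Wnt inhibitors, Dkk2 (389 ± 88.7 CPM against 73.2 ± 24.5, SD over 4 libraries), Dkk3 and Frzb were higher and Sfrp2 and Sfrp4 were lower. Rspo1 and Rspo4, enhancers of Wnt signals, were higher and the ligand Wnt2 was lower among 10 tested ligands and enhancers. Of 9 tested genes of the Wnt target list, Nkd1, Nkd2 and Tcf7 were higher and 0 were lower. Of 10 fibroblast growth factor genes, the receptor Fgfr2 and the feedback inhibitor Spry1 were higher and 0 were lower. In the hedgehog list, the receptor Ptch1 (192 ± 60.2 against 26.0 ± 5.69 CPM) and the transcription factor Gli1 (62.9 ± 30.4 against 7.81 ± 1.59 CPM), both known targets of the pathway, were higher, the co-receptor Cdon was lower and 7 of 10 were neither. Of 25 BMP and transforming growth factor β genes, 4 were higher (the BMP antagonist Nog, Tgfb1, Inhba and Ltbp2) and 7 were lower, among them the BMP targets Id2 and Id3. The endothelin receptor Ednra was higher and the ligand Edn1 was lower. Among the collagens, 7 of 20 tested were higher, including the basement membrane chains Col4a1 (log2 fold 1.64) and Col4a2 (2.02), and 2 were lower, Col6a6 and Col14a1. The other matrix genes gave 7 higher and 10 lower of 34. Among 10 retinoid genes, Cyp26b1, which degrades retinoic acid, and Rdh10 were higher, and Aldh1a1, Aldh1a3, Rbp4 and Rarb were lower.

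Genes induced by tissue dissociation moved with this comparison. Of 15 such genes, 8 were lower in selected FBs and Hspb1 was higher. The list summed to 5399, 3013, 2073 and 1452 CPM in selected FBs of PBMCsec libraries 3 and 4 and vehicle libraries 3 and 4, and to 7921, 4564, 5364 and 4839 CPM in other collagen-gated cells. Its part in the counts above was not tested. With 4-fold in place of 2-fold, 120 genes were higher and 136 lower, and with a prior of 1 CPM, 670 were higher and 1416 lower.

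Within the selected FBs, Acta2 separated cells along the contractile genes. Acta2, the smooth muscle actin (chr19:34241090-34255590), was found at 1 UMI in 12 cells, at 2 in 6, at 3 in 3, at 5 in 2, and above 5 in 27, up to 264 UMIs. Its level over all selected FBs was 1142 and 1148 CPM in PBMCsec libraries 3 and 4 and 1243 and 3819 CPM in vehicle libraries 3 and 4, where 1 cell held 84.3% of the Acta2 UMIs of vehicle library 4. Cells with at least 3 UMIs and cells with 0 were alike in depth (median 8438 and 8053.5 UMIs), and their collagen share was 1.87% and 2.72% of UMIs. They were compared over the 3 libraries with at least 5 cells of each class, PBMCsec 3 and 4 and vehicle 3, with 28 cells against 42. Again no test applies, since Acta2 made the classes. Of 7069 genes, 325 were higher in the class with Acta2 (4.60%) and 374 were lower (5.29%), with a median log2 fold of -0.04.

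The cells with Acta2 carried most of the contractile genes. Of 18 contractile genes outside the rule, 13 were tested and 12 were higher, with a median log2 fold of 1.52. Tagln stood at 2087, 1260 and 2231 CPM with Acta2 and at 139, 120 and 47.7 CPM without (log2 fold 4.06). Tpm1, a tropomyosin, stood at 3454, 1206 and 2985 CPM against 349, 309 and 229 CPM (3.07). Actg2 had 69 UMIs in 16 of the 28 cells with Acta2 and 0 in the 42 cells without. The classes did not overlap for any of these 3 genes, which are among those with the largest folds. The share of all genes without overlap was not counted. Ppp1r14a, an inhibitor of myosin phosphatase, fell short at a log2 fold of 0.97. Of the sheath list, 7 of 8 tested genes were higher, and Ednra was not (0.83). Acta2, which made the classes, is itself on the sheath list, and the lists were chosen with earlier results known. As a description, the cells with at least 3 Acta2 UMIs are dermal sheath-like by these markers. Vessel-wall genes were divided in them. Of the 13 genes of that list, 9 had 0 UMIs in these 32 cells, among them Kcnj8, Abcc9, Notch3, Des and Vtn, and Rgs5, which the selection limited. The other 4 were found, Mcam in 59.4% of the cells, Cspg4 and Ndufa4l2 in 50% each and Myh11 in 15.6%. The list summed to 540, 478, 537 and 702 CPM in PBMCsec libraries 3 and 4 and vehicle libraries 3 and 4, against 218, 179, 134 and 0 CPM in cells with 0 Acta2 UMIs. The part of vessel-wall cells in this class was not tested.

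Outside the contractile list, the class with Acta2 was higher for Acan (log2 fold 3.67), Casq2 (3.47), Kank4 (3.38), Mcam (3.24), Fry (3.10), 1190005I06Rik (3.09), Bmp3 (3.00), Igfbp2 (2.91) and Fbxl22 (2.90). Sbspon, with 33 UMIs, and Gpha2, with 19 UMIs in 5 cells, had 0 UMIs in the class without Acta2. Igfbp2, which binds insulin-like growth factors, was the most abundant of these, at 1115, 2216 and 1442 CPM against 244, 89.7 and 277 CPM. Without PBMCsec library 4 its log2 fold was 2.25, that of Mcam 4.33 and that of Casq2 4.22. Casq2 had 2.88 without vehicle library 3. Hspb1, a small heat shock protein, had a log2 fold of 4.02, with 63.8% of its UMIs in 1 cell of the class with Acta2, and of 2.31 without PBMCsec library 3.

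The cells without Acta2 were higher for Coch, at 7066, 518 and 162 CPM against 89.9, 30.3 and 16.8 CPM, although 49.8% of those UMIs lay in 1 cell. They were also higher for Ltbp1 (-3.71), which stores latent transforming growth factor β, Gpm6b (-3.70), Cyp26b1 (-3.14), Cd34 (-3.14), Gldn (-3.10), Igf1 (-3.08) and Chst2 (-2.92). Some of these folds rested on 1 library. Without PBMCsec library 3 the log2 fold of Coch was -3.38, that of Gpm6b -2.89 and that of Gldn -1.98, and without PBMCsec library 4 that of Igf1 was -2.22. Gldn stood at 662, 99.7 and 114 CPM in the cells without Acta2, and Igf1 at 122, 787 and 343 CPM. Tmem132c, Abca8a, Kera, Fcgr2b, Nrn1, Meox2 and Sod3, with 38, 37, 31, 28, 28, 28 and 23 UMIs, had 0 UMIs in the cells with Acta2. In the cells without it, Tmem132c, Abca8a, Kera and Meox2 stood at 200 to 279 CPM in PBMCsec library 3 and at 9.54 to 49.8 CPM in the other 2 libraries. Cd34, a surface protein of many dermal FBs, stood at 296, 279 and 401 CPM against 54.0, 30.3 and 0 CPM. Its log2 fold was -2.51 without vehicle library 3 and -3.80 without PBMCsec library 3. Among 34 matrix genes, 11 were higher without Acta2, including the small proteoglycans Lum (1142 ± 235 against 161 ± 97.6 CPM, SD over 3 libraries) and Dcn, and 4 were higher with it, Acan, Fbn2, Nid1 and Nid2. Of the 24 papilla genes outside the rule, 11 were tested, of which Alpl was higher with Acta2 and 10 were neither. Of all 26 genes of the list, 9 had 0 UMIs in the 32 cells with at least 3 Acta2 UMIs (Lef1, Prom1, Rspo2, Rspo3, Hhip, Bmp7, Notum, Edn3 and Crabp1), while Rspo2 alone was at 0 in the 52 cells with 0 Acta2 UMIs. Edn3 had a UMI in 8 and Lef1 in 5 of those 52 cells. Of 14 dissociation genes, Hspb1, Dnajb1 and Zfp36 were higher with Acta2, and their part in the other counts was not tested. Dkk2 was higher without Acta2 (-1.52). With 4-fold in place of 2-fold, 65 genes were higher and 56 lower.

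**Figure D4:**
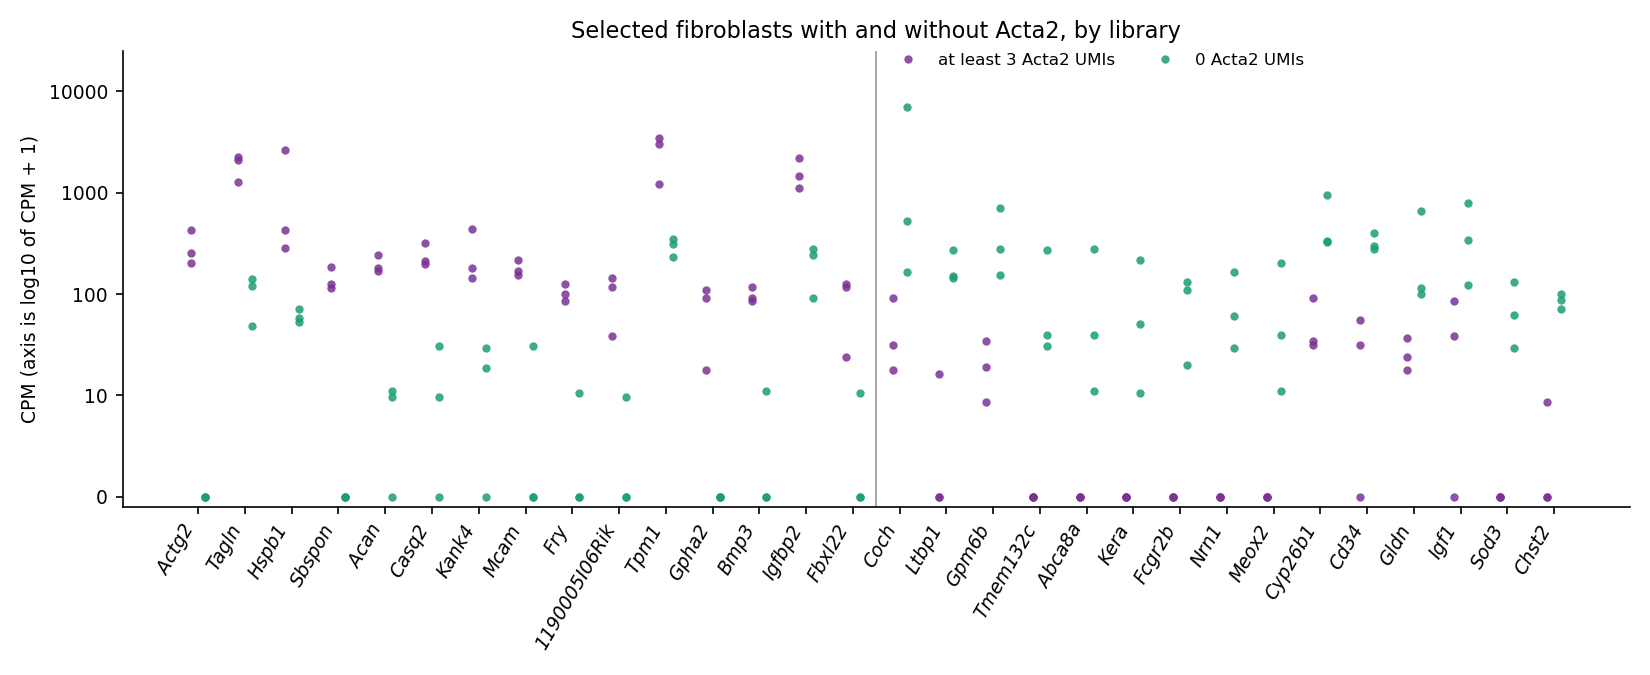
Level of the 15 genes with the largest fold on each side in selected FBs with at least 3 and with 0 Acta2 UMIs, 1 point per library for 3 libraries, as CPM on an axis of log10 of CPM + 1. Actg2, Sbspon and Gpha2 lie at 0 in every library of the cells without Acta2, and 7 genes on the right lie at 0 in every library of the cells with Acta2.

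Because the contractile genes moved together, the bases before their transcription starts were searched for the CArG box, the site of serum response factor that is known from smooth muscle genes. RefSeq promoters (GRCm38.p6) were found for 11 of the 13 contractile genes that were higher with Acta2, Acta2 itself included, at 13 starts. The exact motif, which reads the same on both strands, lay within 250 bases before the start at 3 of these 13 starts, in Myl9, Myl6 and Vcl, and at 482 of all 32851 promoters (1.47%). A match is a description of the sequence and not a site shown to be used, and the Acta2 window held no exact match. The 100 bases that surround each match are shown 5′ to 3′ on the strand of the gene, with the CArG box in capitals, because these are the genes of the group whose promoters hold it. Myl9 is a regulatory light chain of myosin, Myl6 an essential light chain, and Vcl is vinculin, which anchors actin to the membrane. The windows are chr2:156775258-156775357 (plus strand), chr10:128493010-128493109 (minus strand) and chr14:20929148-20929247 (plus strand), and the matches begin 161, 50 and 227 bases before the start.
Myl9: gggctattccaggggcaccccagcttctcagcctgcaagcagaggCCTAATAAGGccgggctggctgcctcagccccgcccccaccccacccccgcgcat
Myl6: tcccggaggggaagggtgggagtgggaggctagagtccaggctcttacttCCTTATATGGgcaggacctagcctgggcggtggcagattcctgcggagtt
Vcl: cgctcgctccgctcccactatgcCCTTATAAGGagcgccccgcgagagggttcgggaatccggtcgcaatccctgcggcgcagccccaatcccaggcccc

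In the comparison of the classes, Myl9 had a log2 fold of 2.18, Myl6 of 1.07 and Vcl of 1.30 in favour of the cells with Acta2. Tpm1, Tpm2, Cald1, Mylk, Smtn, Synpo2 and Actn1 had no exact match and log2 folds between 1.07 and 3.07.

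The treatment was not used in the selection, so shares and levels could be compared between PBMCsec and vehicle. The first question was whether the share of selected FBs among collagen-gated cells changed. It was 2.86%, 3.41%, 5.15% and 8.70% in PBMCsec libraries 1 to 4 and 1.75%, 5.0%, 6.0% and 2.81% in vehicle libraries 1 to 4. The groups overlapped, and the means of 5.03% ± 2.63 (SD, n = 4) and 3.89% ± 1.95 (SD, n = 4) differed by less than the spread between libraries (exact two-sided permutation test, p = 0.486, adjusted p over both shares = 0.971, the smallest possible p being 0.0286). In the libraries numbered 3 and 4 the means were 6.92% and 4.41% (difference 2.52 percentage points, exact p = 0.667), and in those numbered 1 and 2 they were 3.13% and 3.38% (-0.24, exact p = 1), where 2 against 2 cannot go below 0.333. Without PBMCsec library 4 the difference of 1.14 percentage points turned to -0.087. In cells thinned to 2000 UMIs it was -0.10, with 54 collagen-gated cells left out after PBMCsec and 64 after vehicle as too shallow, and 69 selected FBs.

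The share of selected FBs with at least 3 Acta2 UMIs was compared in the 4 libraries with at least 10 selected FBs. It was 6 of 26 cells (23.1%, exact 95% interval 8.97 to 43.6) and 12 of 26 (46.2%, interval 26.6 to 66.6) after PBMCsec, and 10 of 29 (34.5%, interval 17.9 to 54.3) and 3 of 10 (30.0%, interval 6.67 to 65.2) after vehicle. The vehicle libraries lay between the PBMCsec libraries. The means were 34.6% ± 16.3 and 32.2% ± 3.17 (SD, n = 2 each), and 2 libraries against 2 cannot give an exact permutation p below 0.333 (p = 1). Without PBMCsec library 4 the difference of 2.37 percentage points turned to -9.16, and at a mitochondrial limit of 5% it was -18.6.

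Gene expression in selected FBs was compared between the same 4 libraries on summed counts with edgeR's quasi-likelihood test. Of 3615 genes tested, 1 was called at an adjusted p under 0.05 (0.0277%), the heat shock gene Hspa1a, and it was higher after PBMCsec. At an unadjusted p under 0.05, 83 genes were higher (2.30%) and 71 were lower (1.96%). DESeq2 called Hspa1a and its copy Hspa1b, and limma called Hspa1a alone. With the mitochondrial limit of 5% that the study used, 11 genes were called, among them Hspa1a, Hspa1b, Aspn, Eln and Igfbp5, on 18, 15, 18 and 4 cells of the 4 libraries.

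Hspa1a, an inducible HSP70 chaperone (chr17:34969190-34972156), stood at 518 and 476 CPM in PBMCsec libraries 3 and 4 and at 62.1 and 24.4 CPM in vehicle libraries 3 and 4. The groups did not overlap, which held for 31.8% of all genes, and the log2 fold was 3.42 (SE 0.44, edgeR adjusted p = 0.0211). Few cells carried it. Of the 116 UMIs in PBMCsec library 3, 75 came from 1 cell, and of the 121 in PBMCsec library 4, 103 came from 1 cell. A UMI was found in 11 of 26 and 8 of 26 cells after PBMCsec and in 7 of 29 and 1 of 10 after vehicle. Selected FBs were deeper after PBMCsec, with medians of 8332.5 and 10391 UMIs against 5765 and 7688 UMIs. Thinned to 2000 UMIs per cell, 5 of 26 and 5 of 26 cells held a UMI against 2 of 29 and 1 of 10. Without the cell richest in Hspa1a in each library, the levels were 189 and 73.3 CPM after PBMCsec and 41.9 and 0 CPM after vehicle. The call was lost without vehicle library 3 (log2 fold 4.33) and without vehicle library 4 (3.11). With at least 5 selected FBs per library as the limit it was lost too (3.29, edgeR adjusted p = 0.0744). Hspa1b, a near-identical copy whose reads cannot be fully told apart from it, stood at 602, 212, 50.8 and 24.4 CPM in the same order (3.35, SE 0.60, adjusted p = 0.218). It passed with DESeq2 (adjusted p = 0.00798) and at the mitochondrial limit of 5% (0.00959).

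Other dissociation genes had folds on the same side. Of 13 tested, 13 had a fold above 0, as had 1837 of all 3615 genes, and 8 were higher at an unadjusted p under 0.05, as were 2.30% of all genes. Hspa1a and Hspa1b were among the 8, and the list had a median log2 fold of 1.17 against 0.01 for all genes. Hsp90aa1, a chaperone, stood at 415 and 315 CPM after PBMCsec and 203 and 122 CPM after vehicle (log2 fold 1.17, SE 0.37, adjusted p = 0.972). The list sums given above, 5399 and 3013 CPM against 2073 and 1452 CPM, did not overlap in selected FBs. Single cells carried much of them, and without the cell richest in the list in each library the sums were 3680 and 1396 CPM against 1582 and 1122 CPM, which overlapped. In PBMCsec library 3, 1 cell held 141 of 156 UMIs of Hspb1 and 1 held 16 of 26 of Dnajb1, and in PBMCsec library 4, 1 cell held 76 of 87 UMIs of Jun and 1 held 51 of 73 of Fos. In other collagen-gated cells the sums were 7921 and 4564 CPM against 5364 and 4839 CPM, and Hspa1a stood at 680 and 146 CPM against 357 and 114 CPM, so both overlapped. The list holds all 15 genes above 0 in selected FBs, with Jund the most abundant. The part of cell handling in the Hspa1a value was not tested.

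The remaining genes with the smallest p did not pass the adjustment, although 6 of the 8 did under another setting. Aspn passed at the mitochondrial limit of 5% (log2 fold 2.43, adjusted p = 0.00959), with no filter on low counts and without either PBMCsec library. With no filter, Cck, Cyr61, Clec3b and Cited2 passed too (adjusted p 0.000192 to 0.0404). Cck also passed without PBMCsec library 3 (adjusted p = 0.016), and Cyr61, Cdkn1c, Clec3b and Cited2 without PBMCsec library 4 (adjusted p 3.61e-05 to 0.0271). On the higher side these were Aspn, an inhibitor of transforming growth factor β in the matrix (584 and 684 CPM against 192 and 171 CPM, log2 fold 1.86, SE 0.35, adjusted p = 0.218), the peptide hormone gene Cck (75.8 and 114 against 11.3 and 12.2 CPM) and Cyr61 (839 and 413 against 237 and 122 CPM). On the lower side these were the cell cycle inhibitor Cdkn1c (107 and 149 against 491 and 293 CPM, log2 fold -1.56, SE 0.37, adjusted p = 0.718), the protease Adamts5 (344 and 488 against 1067 and 1000 CPM), Clec3b (112 and 315 against 548 and 1281 CPM), Cited2 (8.92 and 47.2 against 152 and 122 CPM) and Man1a (120 and 110 against 328 and 256 CPM). The Cck values rested on 2 cells, which held 14 of 17 and 22 of 29 UMIs of the PBMCsec libraries, and without the richest cell in each library they were 14.1 and 28.8 against 5.88 and 0 CPM. Being chosen by p, these 8 genes separate the groups by construction, as did 31.8% of all genes tested.

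**Figure D5:**
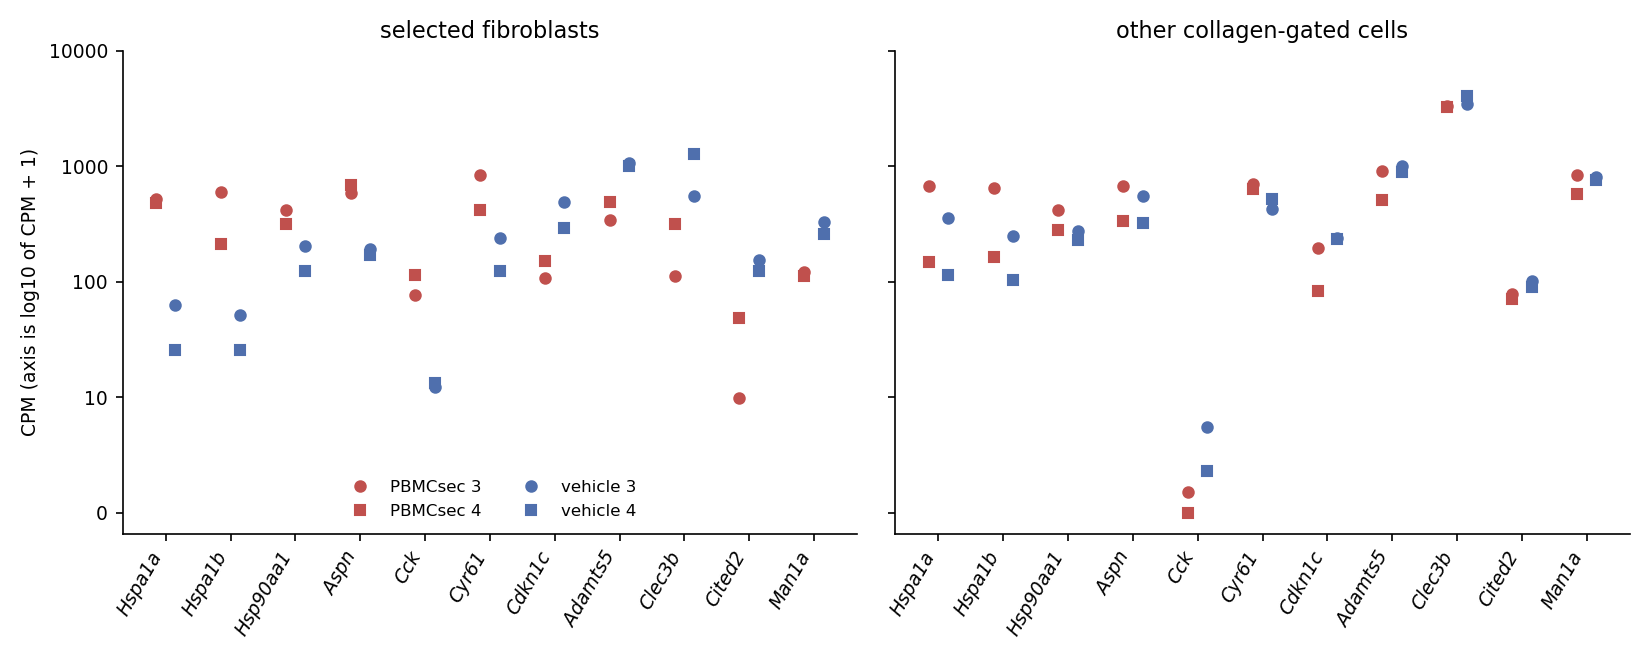
Level of 11 genes, Hspa1a, Hspa1b, Hsp90aa1 and the genes with the smallest p on either side, in selected FBs (left) and other collagen-gated cells (right), as CPM on an axis of log10 of CPM + 1, PBMCsec in red and vehicle in blue, circles for libraries 3 and squares for libraries 4. Red and blue separate for Hspa1a on the left, at 476 CPM or more against 62.1 CPM or less, and interleave on the right.

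The 4 selection genes carry no test here, because UMIs of these genes chose the cells, and their log2 folds are given as a description. They were -0.56 for Ednrb, 0.25 for Wif1, 0.07 for Col11a1 and 1.5 for Crabp1. Acta2, which did not choose the cells, had a log2 fold of -1.09 (SE 0.44, adjusted p = 0.999), and without vehicle library 4 it was 0.0066. In that library 264 of 313 Acta2 UMIs (84.3%) lay in 1 of 10 cells. Without the richest cell of each library, the Acta2 levels were 635 and 895 CPM after PBMCsec and 860 and 714 CPM after vehicle. The contractile list summed to 7402 and 7615 CPM after PBMCsec and 8189 and 13652 CPM after vehicle, with vehicle library 4 far above the rest. Of its 13 tested genes, 0 had a fold above 0, against 1837 of all 3615 genes, and 0 were called. At an unadjusted p under 0.05, 2 of them were lower, against 1.96% of all genes. The sheath list, which shares genes with it, had 9 tested genes other than the selection genes. Of these, 0 had a fold above 0, with a median log2 fold of -0.75. Neither the contractile nor the sheath count was repeated without vehicle library 4. Of 17 tested collagens outside the selection rule, 16 had folds above 0, with a median of 0.53, and 2 had an unadjusted p under 0.05 on the higher side, against 2.30% of all genes. None of the collagens passed the adjustment, with 0 calls by edgeR. Of the 27 genes that the study names for mouse skin, 20 were tested and 0 were called. At an unadjusted p under 0.05, 1 was higher and 3 were lower, against 2.30% and 1.96% of all genes. Eln, elastin, had a log2 fold of 0.89 (SE 0.43, adjusted p = 0.999), but at the mitochondrial limit of 5% it was 2.69 and passed (adjusted p = 0.0182). Txnip had a log2 fold of -0.92 (SE 0.36) and Ltbp4 of 0.01 (SE 0.34).

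Whether the effect of treatment differed between selected FBs and other collagen-gated cells was tested as an interaction over the same 4 libraries, with library as a block. Of 10378 genes, 7 were called (0.0675%), 5 with a log2 effect in selected FBs that lay above that in the other cells (0.0482%) and 2 with one that lay below it (0.0193%). Hspa1a was among the first, with a difference of 3.14 between the log2 effects (SE 0.56, edgeR adjusted p = 0.00595). Its call was lost at the mitochondrial limit of 5% (difference 2.88, adjusted p = 0.555), without vehicle library 3 (2.96) and without vehicle library 4 (3.19). Without vehicle library 3 the number of calls was 0 and without PBMCsec library 4 it was 47.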

How the data were processed

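Dorsal skin was measured as 8 single-cell 3′ libraries, 4 per group. The files the authors deposited hold unnormalized UMI counts for each gene in each called cell, from reads aligned to mm10 (GRCm38). The submitters' processing notes name Cell Ranger 3.0.2. The deposited gene and barcode lists carry names only. No doublet caller was used here, and none is named in the sources used here.

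The rule of selection was applied to the counts as given in the report. The selected FBs and the gene lists were chosen with earlier results of these data known. Gm42418, Gm17056 and Gm26917 were removed. Total counts were 14753926 to 37880651 UMIs per library. CPM are scaled to all remaining UMIs of the summed cells. Intervals are exact binomial ones and cover counting error only, as do upper limits from a count of 0 (3 counts).

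Counts of the selected FBs were added up within each library that held at least 10 of them. The quasi-likelihood test of edgeR 4.0.16 was used in R 4.3.3, after filterByExpr and with TMM scaling and Benjamini-Hochberg adjustment. DESeq2 1.42.0, limma 3.58.1, other filters and leaving out libraries were alternatives. Fits and counts were tested on simulated data. The simulated fits gave all genes the same dispersion and did not model UMIs held mostly by single cells. Values without the richest cell, Hspa1a detection at a fixed depth and folds of named genes without a library were added after the data had been seen. Shares were compared by exact permutation. Genes were named by rule: selection genes, list members, the 15 largest folds per side in the comparisons without a test, and, with fewer than 5 calls, the 5 smallest p per side. Positions come from GENCODE M21.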

Additional observations from a re-analysis of the deposited data

Results flagged for a closer look

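The effect of PBMCsec differed between selected FBs and other collagen-gated cells for 7 genes by edgeR's interaction test, and the values behind them come from few cells. Cxcl9 (adjusted p = 0.00279) had 43 UMIs in PBMCsec library 3, all in 1 selected FB, and 0 in the selected FBs of the other 3 libraries. Ccl2 (adjusted p = 0.0442) had 228 UMIs in PBMCsec library 3, 201 of them in 1 cell, and 1, 2 and 0 in PBMCsec library 4 and vehicle libraries 3 and 4. Hspa1a (adjusted p = 0.00595) and Hspa1b (0.0384) stood at 680 and 645 CPM in other collagen-gated cells of PBMCsec library 3, above their levels of 518 and 602 CPM in the selected FBs of that library.

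Coch (adjusted p = 0.0330) stood at 3712 and 346 CPM after PBMCsec and 209 and 1171 CPM after vehicle in selected FBs, with 438 of 832 UMIs of PBMCsec library 3 in 1 cell. For 2 genes the log2 effect in selected FBs lay below that in the other cells. The keratin gene Krt17 (adjusted p = 0.0384) stood at 17.8 and 43.3 CPM after PBMCsec and 175 and 48.8 CPM after vehicle in selected FBs. In the other cells it stood at 19.5 and 152 against 61.8 and 24.7 CPM, and 254 of its 366 UMIs in PBMCsec library 4 lay in 1 of those cells. Clec3b (adjusted p = 0.0477) stood at 112 and 315 CPM against 548 and 1281 CPM in selected FBs, and at 3328 and 3246 CPM against 3436 and 4067 CPM in the other cells. Its log2 fold in selected FBs was -2.01, but -1.22 without vehicle library 4 and -0.15 with at least 5 selected FBs per library as the limit.

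The 7 calls depended on the libraries and the cell filter. None passed without vehicle library 3. The difference between the log2 effects was then 2.96 for Hspa1a, 2.30 for Hspa1b, -2.29 for Clec3b and -2.27 for Krt17. Cxcl9 had 9.92 and Ccl2 9.80, both set against 0 UMIs in the selected FBs of vehicle library 4. Coch fell to 1.01, from 2.74 with all libraries. Coch alone passed without vehicle library 4 (4.53). Without PBMCsec library 3, Cxcl9 (difference 4.25), Ccl2 (0.36) and Clec3b (-1.13) did not pass, and without PBMCsec library 4, Krt17 (-1.49) did not. At the mitochondrial limit of 5%, the adjusted p was 0.555 for Hspa1a, 0.859 for Hspa1b, 0.387 for Clec3b and 1 for Krt17, while Cxcl9, Coch and Ccl2 passed.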

How the results depend on the processing

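The number of called genes in selected FBs was not stable across settings. It was 1 with all 4 libraries and 0 to 65 when each library was left out in turn. It was 2 with DESeq2, 27 with no filter on low counts, 11 at a mitochondrial limit of 5%, and 0 with at least 3 of the 4 selection genes, with at least 5 members per library or in cells with 0 Acta2 UMIs alone. The cause was not tested. Hspa1a kept its direction in all 13 alternatives that tested it (log2 fold 3.11 to 4.33) and passed in 10 (adjusted p 9.71e-10 to 0.425). The interaction gave 11 calls with DESeq2 size factors, 13 with no filter and 0 to 47 without each library in turn.

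Library numbers were not taken as pairs, since 2 pairs cannot settle it and deviations of equal numbers correlated at 0.14 across genes. With the number as a replicate block, edgeR called 2 genes, Hspa1a and Hspa1b (adjusted p = 0.0245 for each, against 0.0211 and 0.218 without the block). For the shares it gave differences of 1.14 (exact p = 0.75) and 2.37 percentage points. The share of selected FBs differed by -0.10 after thinning to 2000 UMIs and by -0.087 to 1.86 without each library in turn, but by 2.93 (exact p = 0.314) at 5% mitochondrial UMIs and 3.88 (exact p = 0.0571) with collagen at 2% of UMIs or more. The share with at least 3 Acta2 UMIs differed by -18.6 at 5% mitochondrial UMIs, by -0.74 without cells that hold UMIs of other cell types, by -3.40 at 5 Acta2 UMIs and by -9.16 to 13.9 without each library. The other share settings kept the direction.

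The descriptive counts moved by construction with a prior of 1 CPM (670 higher, 1416 lower against other collagen-gated cells) and with 4-fold (120 and 136, and by Acta2 65 and 56). With at least 3 selection genes, 972 were lower. Leaving out each library in turn gave 446 to 480 higher and 513 to 568 lower, and 363 to 437 and 396 to 496 by Acta2.

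Among named genes in selected FBs, leaving out each library in turn moved the log2 fold of Ednrb between -1.63 and 0.084 (without PBMCsec library 3), Wif1 between -0.25 (without PBMCsec library 3) and 0.82, Crabp1 between -0.24 (without PBMCsec library 3) and 2.59, Acta2 between -1.71 and 0.0066 (without vehicle library 4), and Ltbp4 between -0.24 (without vehicle library 3) and 0.25. Each such fit leaves 1 library alone in its group, which is assumed to vary like the others. Wif1 was -0.39 in cells with 0 Acta2 UMIs. Col11a1 was -0.048 at 5% mitochondrial UMIs, -0.037 with at least 3 selection genes and -0.28 with at least 5 members per library. Ltbp4, at 0.0056, turned to -0.0042 with DESeq2 size factors, -0.014 with DESeq2, -0.0086 with limma, -0.022 with at least 10 counts in 3 libraries, -0.25 with at least 3 selection genes, -0.30 with at least 5 members per library and -0.00019 in cells with 0 Acta2 UMIs. A minimum of 20 members per library left 1 vehicle library and was not run. With 2 libraries per group and 82169 UMIs in the smallest, depth limits what the treatment test can show.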

Other observations

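Low-collagen cells with 0 Acta2 UMIs, 90 cells from all 8 libraries, held genes of papilla signalling at pooled levels of 534.8 CPM for Lef1, 1020 CPM for Rspo3, 663 CPM for Hhip, 576 CPM for Corin and 1534 CPM for Crabp1. Those with at least 3 Acta2 UMIs, 47 cells, stood at 4919 CPM for Acta2, 2569 CPM for Tagln and 3994 CPM for Ednrb, and at 13.7 CPM for Lef1 and 10.9 CPM for Rspo3. Of these 47 cells, 27 came from vehicle library 3. Low-collagen cells in each library numbered 29, 4, 17 and 22 after PBMCsec and 7, 7, 43 and 24 after vehicle.

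Cell cycle genes in the selected FBs had a sum over 12 genes of 84.8, 55.1, 45.2 and 61.0 CPM in PBMCsec libraries 3 and 4 and vehicle libraries 3 and 4. In other collagen-gated cells it was 57.1, 59.3, 52.0 and 51.1 CPM. In low-collagen cells that sum was 58.0, 359, 184 and 93.2 CPM, led by Mki67.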
